A study of Mus musculus with 8 samples.

Results

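The testis-specific serine kinases are a small family of protein kinases, and their 6 mouse genes on the array, Tssk1 to Tssk6, were followed here in round spermatids of 4 Miwi genotypes. The genes were taken by symbol: a transcript cluster (a set of probes that the array reads as 1 gene) counted when the platform annotation gave it a single symbol in that set, and a gene with several such clusters would have been read on the one with the highest mean. All 6 genes were found, with 1 cluster each, among 19938 genes named by single-symbol clusters. Transcript levels were measured on 8 Affymetrix arrays of total RNA from round spermatids (haploid male germ cells that have finished meiosis and not yet elongated) purified from testes of adult C57BL/6 mice. Miwi (gene symbol Piwil1) encodes a PIWI-family protein, the partner of piRNAs in the testis from late meiosis on. MIWI -/- mice carried null alleles only, MIWI -/KI mice a null allele beside a knock-in allele, MIWI +/KI mice a wild-type allele beside the knock-in, and the MIWI +/- mice a wild-type allele beside a null one. Every group, MIWI +/- included, thus carried a mutated allele, and none was wild type on both chromosomes. The labels name the knock-in allele no further than KI, and the series concerns the catalytic activity of MIWI.

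Each genotype had 2 arrays, called biological replicates in the titles. RNA came from spermatids pooled over gradient fractions, and no source used here says whether an array stands for 1 animal or several. The limma p-values therefore set each difference against a spread estimated between such preparations, which may be technical. Piwil1 itself had intensities of 196 and 151 in MIWI -/- spermatids, 672 and 696 in MIWI -/KI, 680 and 749 in MIWI +/KI, and 389 and 371 in MIWI +/-, so the 2 arrays without an intact or knock-in allele were the lowest. The MIWI -/KI arrays stood further apart than any other pair of 1 genotype: their log2 values correlated across clusters with r = 0.97, below the r = 0.987 of MIWI -/KI replicate 1 with MIWI -/- replicate 2. Where leaving out 1 of them changes a call, the value without it is given.

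TSSKs are serine/threonine kinases of the same broad kinase group as the calmodulin-dependent and AMP-activated kinases, and in mammals they are made mainly in male germ cells after meiosis. Tssk1 and Tssk2 lie side by side in the mouse genome, act on the shared substrate TSKS around the chromatoid body, and their joint loss makes male mice infertile. Tssk3 is also required for male fertility in mice, Tssk4 phosphorylates the outer dense fibre protein ODF2 of the sperm tail, and Tssk6 (also called SSTK) is required in mouse spermatids for the condensation of sperm DNA and the appearance of phosphorylated H2AX.

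In both mutants against MIWI +/-, Tssk6 was the kinase gene with the largest difference among the 6, followed by Tssk3 and Tssk2. Against MIWI +/-, 3 of the 6 genes were lower past the threshold (adjusted p under 0.05 over all clusters) and 0 higher in MIWI -/- spermatids, where 3.53% of all genes were lower and 2.6% higher. The same 3 were lower and 0 higher in MIWI -/KI spermatids, where 3.12% of all genes were lower and 3.11% higher. Tssk1, Tssk4 and Tssk5 passed the threshold in none of the comparisons of genotypes made with the full model.

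**Figure D1:**
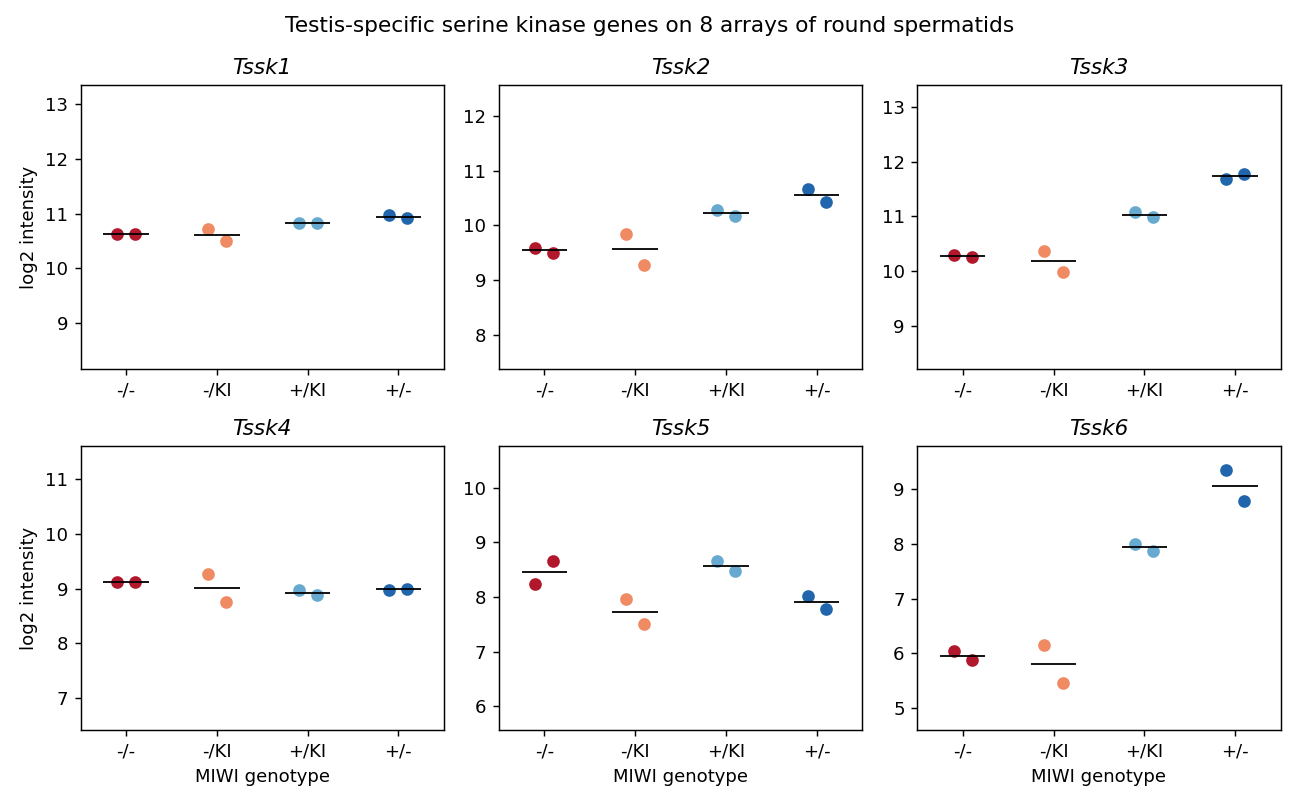
Log2 intensity (vertical axis) of the 6 kinase genes on each of the 8 arrays, by MIWI genotype (horizontal axis, from -/- to +/-); points are arrays and horizontal lines are genotype means, and each panel has the same height in log2 units. For Tssk6 the 4 arrays of MIWI -/- and MIWI -/KI lie between 44.2 and 71.7 in intensity, below the 235 and 256 of MIWI +/KI and the 440 and 656 of MIWI +/-, whereas the MIWI -/KI arrays of Tssk4 enclose all its others.

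Tssk6, read on cluster 10572251 (Entrez gene on chromosome 8), had intensities of 65.7 and 58.5 in MIWI -/- spermatids, 71.7 and 44.2 in MIWI -/KI, 256 and 235 in MIWI +/KI, and 656 and 440 in MIWI +/-. The order of the genotypes was the same on every array: both groups without a wild-type allele lay lowest and overlapped each other, MIWI +/KI lay between, and MIWI +/- lay highest. The genotype means were 62.1 ± 5.11 in MIWI -/-, 57.9 ± 19.4 in MIWI -/KI, 246 ± 14.9 in MIWI +/KI and 548 ± 153 in MIWI +/- (SD, n = 2 each). On the log2 scale Tssk6 fell by 3.12 in MIWI -/- against MIWI +/- (8.67-fold; SE 0.27, limma adjusted p = 0.000654). It fell by 3.26 in MIWI -/KI against MIWI +/- (9.55-fold; SE 0.27, limma adjusted p = 0.00061). Both falls held with any 1 of the 8 arrays left out, with differences between -3.4 and -2.83 in MIWI -/- and between -3.6 and -2.91 in MIWI -/KI. The arrays without a wild-type allele read 44.2 to 71.7, near the array medians of 66.6 to 71.8 over all clusters. The fold sizes thus rest on low readings. Under 11 other settings the differences lay between -3.13 and -2.83 in MIWI -/- and between -3.26 and -2.93 in MIWI -/KI.

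The promoter of Tssk6 is shown because it is the kinase gene with the largest fall, and because genes of haploid spermatids are classically switched on by CREM through cAMP response elements. The 100 bases before the RefSeq start of Tssk6 are given 5′ to 3′, at chr8:69902084-69902183 on the plus strand of GRCm38.p6, with capitals marking the half-site letters TGACG.
Tssk6: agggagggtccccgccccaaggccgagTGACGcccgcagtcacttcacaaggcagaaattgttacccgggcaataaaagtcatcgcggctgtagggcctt
Those letters lie 73 to 69 bases before the start, and on either strand they occur in 20.8% of 32851 RefSeq windows. Each window runs from 250 bases before to 50 after a gene's start, so it is longer than the stretch shown. The full palindrome TGACGTCA, found in 1.79% of windows, and TATAAA, found in 13.6%, were in none of the windows of the 5 kinase genes that RefSeq's table holds (Tssk1, Tssk2, Tssk3, Tssk4 and Tssk6). TGACG was found in the Tssk6 window alone among those 5. TGACG is contained in the palindrome, so those searches overlap, and a match is a match of letters only.

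Tssk3, on cluster 10516602 and chromosome 4, had intensities of 1260 and 1220 in MIWI -/- spermatids, 1320 and 1010 in MIWI -/KI, 2150 and 2030 in MIWI +/KI, and 3300 and 3530 in MIWI +/-. The 3 levels did not overlap: both groups without a wild-type allele lay at the bottom, MIWI +/KI in the middle and MIWI +/- at the top. Tssk3 averaged 1240 ± 31.2 in MIWI -/-, 1170 ± 222 in MIWI -/KI, 2090 ± 84.6 in MIWI +/KI and 3420 ± 158 in MIWI +/- (SD, n = 2 each). On the log2 scale it fell by 1.46 in MIWI -/- against MIWI +/- (2.75-fold; SE 0.15, limma adjusted p = 0.00121), and by 1.56 in MIWI -/KI against MIWI +/- (2.95-fold; SE 0.15, limma adjusted p = 0.00103). These falls, too, held with any 1 array left out.

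Tssk1 and Tssk2, neighbouring genes on chromosome 16, did not behave alike in size. Tssk2 (cluster 10434124) had intensities of 769 and 725 in MIWI -/- spermatids, 924 and 618 in MIWI -/KI, 1250 and 1150 in MIWI +/KI, and 1620 and 1380 in MIWI +/-. All 4 arrays without a wild-type allele lay below all 4 with one. On the log2 scale Tssk2 fell by 1.00 in MIWI -/- (2.01-fold; SE 0.20, limma adjusted p = 0.0286) and by 0.99 in MIWI -/KI (1.98-fold; SE 0.20, limma adjusted p = 0.0303), each against MIWI +/-. These calls lay near the threshold. In MIWI -/- the limma adjusted p was 0.211 and 0.116 without MIWI +/- replicate 1 and 2, 0.0813 and 0.15 without MIWI -/- replicate 1 and 2, and 0.0721 and 0.0724 without MIWI +/KI replicate 1 and 2. In MIWI -/KI it was 0.223 and 0.116 without MIWI +/- replicate 1 and 2, 0.0608 without MIWI -/KI replicate 2, and 0.074 and 0.0741 without MIWI +/KI replicate 1 and 2. Leaving out any array kept the direction, with differences between -1.12 and -0.89 in MIWI -/- and between -1.28 and -0.7 in MIWI -/KI.

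Tssk1 (cluster 10434121) had intensities of 1580 and 1580 in MIWI -/- spermatids, 1690 and 1450 in MIWI -/KI, 1830 and 1810 in MIWI +/KI, and 2000 and 1940 in MIWI +/-. Here too the 4 arrays without a wild-type allele lay below the 4 with one, by a smaller distance. The log2 difference was -0.31 in MIWI -/- (95% interval -0.59 to -0.04, limma adjusted p = 0.232) and -0.33 in MIWI -/KI (-0.61 to -0.06, limma adjusted p = 0.199), each against MIWI +/-, so neither passed the threshold. Without MIWI -/KI replicate 1 the MIWI -/KI difference was -0.44 (limma adjusted p = 0.0446). In RNA pooled over many cells, as here, fewer cells of a stage and less RNA per cell cannot be told apart.

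A stretch upstream of Tssk1 and of Tssk2 is shown because both genes lie in 1 cluster of the genome yet differed in size of change. The bases 52 to 6 before the start of Tssk1 (chr16:17894151-17894197) and 62 to 19 before that of Tssk2 (chr16:17898575-17898618), both on the plus strand of GRCm38.p6 and from RefSeq, carry 2 runs of at least 8 letters in common, in capitals.
Tssk1: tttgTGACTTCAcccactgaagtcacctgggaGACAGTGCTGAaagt
Tssk2: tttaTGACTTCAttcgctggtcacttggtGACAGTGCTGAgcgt
TGACTTCA was in 1.52% of all windows on either strand, and GACAGTGCTGA was in 0.0183%, or 6 of 32851 windows, Tssk1 and Tssk2 among them. These letters were picked after the 2 promoters had been set side by side, so their sharing is a description of related neighbouring genes, not a test. The 250 bases before the start of each of the 2 genes shared 4 such runs in all. In Tssk1 the reverse complement of TGACTTCA also lies 35 to 28 bases before the start, in lower case above.

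Tssk4 and Tssk5 did not follow the other genes. Tssk4 (cluster 10415353, chromosome 14) had intensities of 557 and 553 in MIWI -/- spermatids, 615 and 430 in MIWI -/KI, 504 and 471 in MIWI +/KI, and 500 and 511 in MIWI +/-. The MIWI -/KI arrays enclosed all others. The log2 difference from MIWI +/- was 0.13 in MIWI -/- (95% interval -0.29 to 0.56, limma adjusted p = 0.887) and 0.02 in MIWI -/KI (-0.40 to 0.45, limma adjusted p = 0.983), so a fall as large as that of Tssk2 lies outside both intervals.

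Tssk5 (cluster 10429898, chromosome 15) had intensities of 304 and 406 in MIWI -/- spermatids, 249 and 182 in MIWI -/KI, 403 and 356 in MIWI +/KI, and 261 and 220 in MIWI +/-. Its order differed from that of every other member: MIWI -/- and MIWI +/KI overlapped at the upper end, MIWI -/KI and MIWI +/- at the lower. Against MIWI +/- its log2 difference was 0.55 in MIWI -/- (95% interval 0.04 to 1.06, limma adjusted p = 0.267), -0.17 in MIWI -/KI (-0.68 to 0.34, limma adjusted p = 0.832) and 0.66 in MIWI +/KI (0.15 to 1.17, limma adjusted p = 0.3). The difference between its 2 differences, MIWI -/KI minus MIWI +/KI less MIWI -/- minus MIWI +/-, was -1.38 (SE 0.31, limma adjusted p = 0.147). None of these passed the threshold.

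Both comparisons share the MIWI +/- arrays. The median log2 difference of the 6 was -0.66 in MIWI -/-, beside 0.01 over all genes, and -0.66 in MIWI -/KI, beside 0 over all genes. The genes were chosen with earlier results of these data known, so these counts are a description of the family and no test of it.

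**Figure D2:**
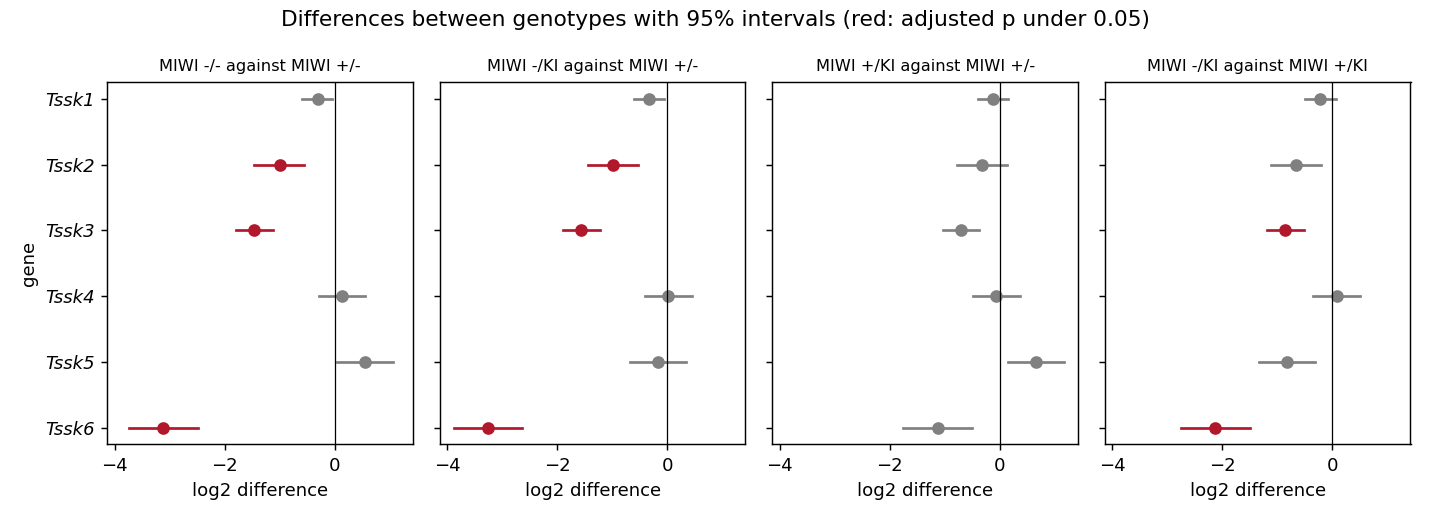
Log2 difference (horizontal axis) of the 6 kinase genes (vertical axis) in 4 comparisons, with 95% intervals from the model; red marks a limma adjusted p under 0.05. Tssk2, Tssk3 and Tssk6 are red in both comparisons of mutants with MIWI +/-, Tssk3 and Tssk6 against MIWI +/KI, and no gene is red in MIWI +/KI against MIWI +/-.

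The knock-in allele could be read in 3 ways. Where the second allele was null (MIWI -/KI against MIWI -/-), no kinase gene passed the threshold, with limma adjusted p = 0.998 for each, 0% of all genes called, and 95% intervals of -0.77 to 0.48 for Tssk6, -0.44 to 0.23 for Tssk3 and -1.23 to -0.21 for Tssk5. The Tssk6 interval leaves room for a difference of up to 0.77 on the log2 scale, but not for a rise as large as the fall against MIWI +/-. Tssk6 intensities in both groups, 44.2 to 71.7, lay near the array medians of 66.6 to 71.8. A further fall in MIWI -/KI could therefore have gone unseen. Among the kinase genes Tssk5 had the largest difference in this comparison, -0.72, and its unadjusted limma p was 0.0113.

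Against MIWI +/KI, which carried the same knock-in beside a wild-type allele, MIWI -/KI spermatids had 2 of 6 genes lower and 0 higher, where 1.29% of all genes were lower and 1.14% higher. Tssk6 fell by 2.13 on the log2 scale (4.37-fold; SE 0.27, limma adjusted p = 0.0112) and Tssk3 by 0.86 (1.81-fold; SE 0.15, limma adjusted p = 0.0313). Tssk2 had -0.66 (limma adjusted p = 0.149), Tssk5 -0.83 (0.113), Tssk1 -0.22 (0.418) and Tssk4 0.08 (0.867). The limma adjusted p of Tssk6 was 0.138 and 0.107 without MIWI +/KI replicate 1 and 2. That of Tssk3 was 0.301 and 0.246 without those arrays, 0.0839 and 0.0834 without MIWI +/- replicate 1 and 2, and 0.0634 without MIWI -/KI replicate 2. Without MIWI -/KI replicate 1, Tssk2 (limma adjusted p = 0.0179) and Tssk5 (0.0336) passed as well. With only the arrays of these 2 genotypes in the model, Tssk6 had a limma adjusted p of 0.058 and Tssk3 of 0.123.

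In MIWI +/KI against MIWI +/-, both with a wild-type allele, 0 of 6 genes passed, where 0.0953% of all genes were called in either direction. Piwil1 was 1.88-fold higher in MIWI +/KI and did not pass here either (limma adjusted p = 0.114). Tssk6 had a difference of -1.13 (2.19-fold lower; 95% interval -1.75 to -0.50, limma adjusted p = 0.179) and Tssk3 of -0.71 (1.63-fold lower; -1.04 to -0.37, limma adjusted p = 0.147), and at an unadjusted p under 0.05 these genes and Tssk5 would have been counted. When arrays were weighted by their agreement, the limma adjusted p was 0.0116 for Tssk6, 0.00603 for Tssk3 and 0.0308 for Tssk5, and with only these 2 genotypes in the model it was 0.0344, 0.0171 and 0.0415 for the same genes. The weights were 2.74 for each MIWI +/KI array, 1.36 for each MIWI +/- array and 0.344 for each MIWI -/KI array. The share of all genes called in these alternative models is not given here, so their calls are not set against it. Without an MIWI +/- array the counts stayed at 0.

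A comparison added after the data had been seen set MIWI -/- against MIWI +/KI. Tssk6 fell by 1.99 there on the log2 scale (3.96-fold; SE 0.27, limma adjusted p = 0.0149), the 1 gene of 6 that passed, where 1.23% of genes were lower. Its limma adjusted p was 0.107 and 0.0786 without MIWI -/- replicate 1 and 2, and 0.179 and 0.129 without MIWI +/KI replicate 1 and 2. Tssk3 had -0.75 (limma adjusted p = 0.0641), and 0.015 and 0.0152 without MIWI -/KI replicate 1 and 2. Tssk2 had -0.68 (limma adjusted p = 0.26), and 0.0498 without MIWI -/KI replicate 2.

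Averaged over the 2 backgrounds, spermatids without a wild-type allele had Tssk6 lower by 2.62 on the log2 scale (6.15-fold, limma adjusted p = 0.000208), Tssk3 by 1.16 (2.23-fold, limma adjusted p = 0.000531) and Tssk2 by 0.83 (1.78-fold, limma adjusted p = 0.0111) than those with one. The 3 genes stand beside 3.93% of all genes lower in this comparison. Tssk1 had -0.26 (limma adjusted p = 0.121), Tssk5 -0.14 (0.747) and Tssk4 0.11 (0.776). For 4 of the 6 genes (Tssk1, Tssk2, Tssk3 and Tssk6) the 4 arrays without a wild-type allele lay below the 4 with one, which held for 6.53% of 19933 genes with a value on all arrays. No kinase gene passed the test of the difference between the backgrounds, and neither did any other (0% of all genes); Tssk6 had 0.99 there (limma adjusted p = 0.372) and Tssk3 had 0.60 (limma adjusted p = 0.307). The Tssk2 average had limma adjusted p = 0.0611 without MIWI +/- replicate 1, and 0.0678 and 0.0512 without MIWI +/KI replicate 1 and 2. That of Tssk1 was 0.0297 without MIWI -/KI replicate 1.

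Whether 2 members moved unequally was asked directly of their log2 ratio, in an exact permutation test (two-sided) of 4 arrays without against 4 arrays with a wild-type allele, over all 15 pairs of members. Of these, 11 passed, each with an exact p = 0.0286, the smallest that 70 regroupings allow, and 0.039 after Benjamini-Hochberg adjustment over the 15 pairs. The pairs share genes and arrays, and the adjusted value depends on how many of them reach that smallest p. A single pair is therefore not settled by its own adjusted p. How often pairs of other genes would pass was not computed. Tssk6 changed by 1.46 more than Tssk3 on the log2 scale, by 1.79 more than Tssk2 and by 2.48 more than Tssk5. Tssk2 and Tssk1 differed by 0.57, and Tssk3 and Tssk2 by 0.32. The 4 pairs that did not pass all held Tssk5, with Tssk1 (exact adjusted p = 0.714), Tssk4 (0.398), Tssk2 (0.198) and Tssk3 (0.0714).

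Over the 8 arrays, each gene centred on its own mean, the members nearest to each other in root mean square log2 difference were Tssk1 and Tssk4 (0.206) and Tssk2 and Tssk3 (0.236), with Tssk1 and Tssk2 at 0.313. The farthest were Tssk4 and Tssk6, and Tssk5 and Tssk6, both at 1.42. This distance is not scaled to the size of change, so genes that change little lie near each other whatever their direction. Without against with a wild-type allele, Tssk1 changed by -0.26 and Tssk4 by 0.11 on the log2 scale. The 2 MIWI -/KI arrays split the family in 1 direction: replicate 2 was lower than replicate 1 for all 6 genes, by 0.22 to 0.70 on the log2 scale, where 60.7% of all genes were lower and the median gap of all genes was -0.11. Between the arrays of MIWI +/KI the 6 genes were also all lower in replicate 2, with 49.7% of genes. In MIWI -/- 5 of the 6 were lower in replicate 2, with 41.2% of genes, and in MIWI +/- 4 were, with 45%.

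Genes with patterns nearest to a kinase gene were looked up for the 3 members whose genotype means spanned at least 1 log2 unit, over 8 arrays. Uncharacterised loci and pseudogenes, by their symbols, were left out, so those given are the nearest among the other genes. For Tssk6 they were Spem1, which takes part in the removal of spermatid cytoplasm (root mean square difference 0.173), Wbscr25 (0.235), Tex46 (0.263), Spem2 (0.277), Azin2, an antizyme inhibitor (0.287), and Prkar2a, a regulatory subunit of protein kinase A (0.292). In MIWI -/- against MIWI +/- these 6 had log2 differences between -3.31 (Tex46) and -2.95 (Prkar2a). All genes named here were picked for nearness on these same 8 arrays. Differences like those of the kinase gene thus follow from the choice and test nothing. For Tssk3 they were Otub2 (0.0947), Tmod4 (0.111), Iqcf1 (0.118), Yod1 (0.125), Cypt12 (0.132) and Flt4 (0.132); Otub2 and Yod1 encode deubiquitinases. For Tssk2 they were Gsdma (0.0694), Klc3, a kinesin light chain of the sperm midpiece (0.0841), Pmvk (0.0883), Rangap1 (0.0904), Tsks (0.0944) and Alas2 (0.0955). Tsks encodes the substrate of TSSK1 and TSSK2.

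**Figure D3:**
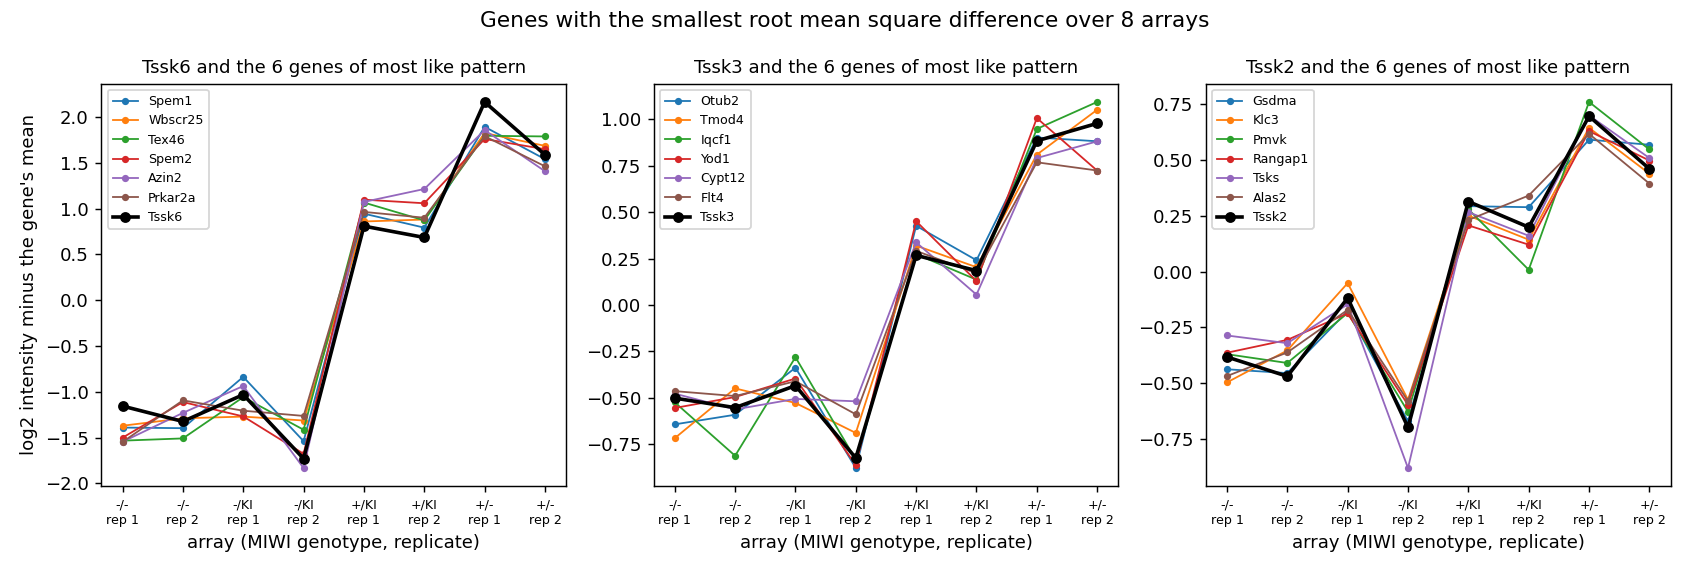
Log2 intensity minus each gene's mean (vertical axis) on the 8 arrays (horizontal axis, from MIWI -/- to MIWI +/-) for Tssk6, Tssk3 and Tssk2 (black) and the 6 genes nearest to each in pattern (colours); the vertical scale differs between panels. In all 3 panels the 4 arrays without a wild-type allele lie below 0 and the 4 with one above it. The coloured genes were chosen for this likeness on the same arrays, with uncharacterised loci left out.

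The proteins that TSSKs bind, phosphorylate or depend on were described by a list of 13 genes, 12 of them measured. Against MIWI +/-, 3 of 12 were lower and 0 higher in MIWI -/-, where 6.13% of all genes were called in either direction; in MIWI -/KI 5 were lower and 1 higher, where 6.23% were. The medians of the 12 were -0.15 in MIWI -/- and -0.17 in MIWI -/KI. The 6 called in MIWI -/KI thus did not all lie on 1 side.

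Oaz3, an antizyme of spermatids, had intensities of 1510 and 1720 in MIWI -/- spermatids, 1820 and 1610 in MIWI -/KI, 3210 and 2960 in MIWI +/KI, and 4830 and 4230 in MIWI +/-. Without a wild-type allele the arrays lay below all others, and Oaz3 fell by 1.49 in MIWI -/- (SE 0.13, limma adjusted p = 0.000599) and by 1.40 in MIWI -/KI (SE 0.13, limma adjusted p = 0.000894), both against MIWI +/- and on the log2 scale. Pdpk1, the upstream kinase PDK1, had 896 and 914 in MIWI -/-, 1030 and 1110 in MIWI -/KI, 1620 and 1550 in MIWI +/KI, and 2240 and 2010 in MIWI +/-. It fell by 1.23 in MIWI -/- (limma adjusted p = 0.00116) and by 0.99 in MIWI -/KI (limma adjusted p = 0.00367), where leaving out MIWI +/- replicate 1 gave 0.0557.

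Tsks had intensities of 1070 and 1040 in MIWI -/- spermatids, 1180 and 708 in MIWI -/KI, 1570 and 1460 in MIWI +/KI, and 2110 and 1850 in MIWI +/-. On the log2 scale it fell by 1.12 in MIWI -/KI against MIWI +/- (SE 0.22, limma adjusted p = 0.0283) and had -0.91 in MIWI -/- (SE 0.22, limma adjusted p = 0.0628). Tsacc, the co-chaperone that helps TSSK6 fold, had 876 and 888 in MIWI -/-, 850 and 674 in MIWI -/KI, 1150 and 1110 in MIWI +/KI, and 1390 and 1310 in MIWI +/-. It fell by 0.83 in MIWI -/KI (limma adjusted p = 0.0167) and had -0.61 in MIWI -/- (limma adjusted p = 0.0575). In MIWI -/KI against MIWI +/-, the limma adjusted p of Tsks was 0.198 and 0.124 without MIWI +/- replicate 1 and 2 and 0.066 and 0.0661 without MIWI +/KI replicate 1 and 2, and that of Tsacc was 0.154, 0.112, 0.0587 and 0.0589 without the same arrays.

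Odf2, the substrate of TSSK4 in the sperm tail, fell by 0.43 in MIWI -/- (limma adjusted p = 0.0404) and by 0.41 in MIWI -/KI (limma adjusted p = 0.0469), and the call was kept in 2 of the 8 models that left out 1 array, in each comparison, with limma adjusted p up to 0.291 in MIWI -/- and 0.324 in MIWI -/KI. Without MIWI -/KI replicate 2 the MIWI -/KI comparison gave 0.094. Hspa8, the constitutive HSC70 chaperone, was the 1 partner that rose, by 0.81 in MIWI -/KI (SE 0.14, limma adjusted p = 0.018), with 0.47 in MIWI -/- (limma adjusted p = 0.132); its call was kept in 3 of 8 such models, with limma adjusted p up to 0.152 and at 0.0633 without MIWI -/KI replicate 2. Hsp90aa1, Spag16, Ppp1cc, Ppp1r16a, H2ax and Creb1 passed in neither comparison. H2ax, the histone whose phosphorylation TSSK6 loss removes, had log2 differences of 0.31 in MIWI -/- and -0.09 in MIWI -/KI.

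**Figure D4:**
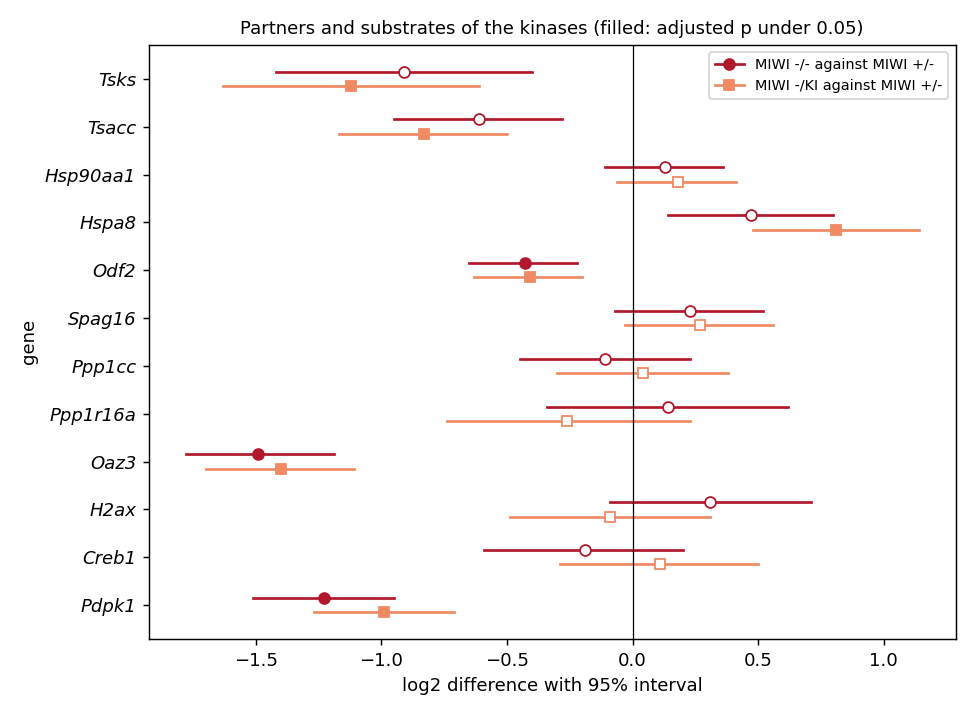
Log2 difference (horizontal axis) with 95% interval of 12 partner and substrate genes (vertical axis) in MIWI -/- (circles) and MIWI -/KI (squares), each against MIWI +/-; filled symbols have a limma adjusted p under 0.05. Oaz3 lies furthest to the left and Hspa8 furthest to the right in both.

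Other kinases were given as 2 lists for comparison. Of 18 AMPK-related kinases, the relatives of TSSKs in sequence, 1 was lower and 0 were higher in each mutant against MIWI +/-, near the 6.13% (MIWI -/-) and 6.23% (MIWI -/KI) of all genes called, with log2 medians of 0.13 in MIWI -/- and 0.10 in MIWI -/KI. That gene was Sik1, a salt-inducible kinase, at -1.28 (limma adjusted p = 0.00855) in MIWI -/- and -1.23 (limma adjusted p = 0.0102) in MIWI -/KI. Without MIWI +/- replicate 1 or 2 its limma adjusted p was 0.0609 and 0.0994 in MIWI -/-, and 0.0698 and 0.105 in MIWI -/KI.

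Of 20 other kinases of germ cells, 3 were lower and 3 higher in MIWI -/-, and 3 lower and 1 higher in MIWI -/KI, each against MIWI +/-, with log2 medians of 0.04 in MIWI -/- and 0.08 in MIWI -/KI. Over all genes 3.53% were lower and 2.6% higher in MIWI -/-, and 3.12% lower and 3.11% higher in MIWI -/KI. Camk4, a calmodulin-dependent kinase of spermatids, fell by 1.65 in MIWI -/- (limma adjusted p = 0.000667) and by 1.21 in MIWI -/KI (limma adjusted p = 0.00327; 0.0507 without MIWI +/- replicate 2). Cdk16, a cyclin-dependent kinase needed for sperm formation in mice, fell by 1.43 in MIWI -/- (limma adjusted p = 0.00455; 0.058 without MIWI +/- replicate 2) and by 1.61 in MIWI -/KI (limma adjusted p = 0.00297). Stk35 was lower in both mutants, at -0.62 in MIWI -/- and -0.81 in MIWI -/KI, and Tex14, a protein of intercellular bridges, higher in both, at 0.64 in MIWI -/- and 0.63 in MIWI -/KI. Gsk3a (1.25) and Nek2 (0.54) were higher in MIWI -/-. The calls of Stk35, Tex14, Gsk3a and Nek2 were each lost in at least 4 of the 8 models that left out 1 array, with limma adjusted p up to 0.263 for Stk35 and 0.166 for Gsk3a in MIWI -/- and 0.301 for Tex14 in MIWI -/KI, all without MIWI +/- replicate 1, and up to 0.306 for Nek2 without MIWI +/- replicate 2. Without MIWI -/KI replicate 2, Tex14 in MIWI -/KI had a limma adjusted p of 0.11.

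For each kinase gene the nearest gene on either side with a single-symbol cluster was taken, which need not be the adjacent gene. This gave 10 flanking genes outside the family, of which 2 passed in each mutant against MIWI +/-. Over all genes 6.13% were called in either direction in MIWI -/- and 6.23% in MIWI -/KI. Ndufa13, a subunit of respiratory complex I whose span overlaps that of Tssk6 in the RefSeq gene table, had intensities of 225 and 166 in MIWI -/- spermatids, 215 and 133 in MIWI -/KI, 311 and 315 in MIWI +/KI, and 536 and 446 in MIWI +/-. On the log2 scale it fell by 1.34 in MIWI -/- (SE 0.26, limma adjusted p = 0.0252) and by 1.53 in MIWI -/KI (SE 0.26, limma adjusted p = 0.0139). Whether probes of the overlapping genes read each other's transcripts was not tested. Gatad2a, on the other side of Tssk6 and a subunit of the NuRD complex, had 0.62 in MIWI -/- (limma adjusted p = 0.162) and 0.05 in MIWI -/KI (limma adjusted p = 0.965).

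Bsdc1, next to Tssk3, had 752 and 839 in MIWI -/- spermatids, 845 and 821 in MIWI -/KI, 1200 and 1310 in MIWI +/KI, and 1280 and 1620 in MIWI +/-. It fell by 0.86 in MIWI -/- (limma adjusted p = 0.0181) and by 0.79 in MIWI -/KI (limma adjusted p = 0.0252), and Marcksl1 on the other side of Tssk3 had -0.45 in MIWI -/- (limma adjusted p = 0.569) and -0.49 in MIWI -/KI (limma adjusted p = 0.497). Dgcr2 and Ess2, which flank the Tssk1 and Tssk2 pair, had -0.51 and 0.26 in MIWI -/- and -0.64 and 0.11 in MIWI -/KI, with no call. In the average without against with a wild-type allele Dgcr2 was lower (-0.61, limma adjusted p = 0.0188), as were Ndufa13 (-1.11, limma adjusted p = 0.00972) and Bsdc1 (-0.72, limma adjusted p = 0.00625). Of all genes, 3.93% were lower in that average. The flanking genes of Tssk4, Tm9sf1 (0.05 in MIWI -/- and -0.01 in MIWI -/KI) and Mdp1 (-0.26 in MIWI -/- and -0.33 in MIWI -/KI), and those of Tssk5, Hgh1 (0.41 in MIWI -/- and 0.08 in MIWI -/KI) and Mroh1 (-0.08 in MIWI -/- and -0.41 in MIWI -/KI), had no call against MIWI +/- or in that average. The span of Tm9sf1 overlaps that of Tssk4 in the RefSeq gene table, and reading of each other's transcripts was not tested there either. Of the 8 models that left out 1 array, 3 kept the call of Ndufa13 in MIWI -/- and 6 in MIWI -/KI, and 3 kept that of Bsdc1 in each mutant. The limma adjusted p reached 0.187 for Ndufa13 in MIWI -/- (without MIWI +/- replicate 1) and 0.216 for Bsdc1 in MIWI -/KI (without MIWI +/- replicate 2), which had 0.076 without MIWI -/KI replicate 2.

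**Figure D5:**
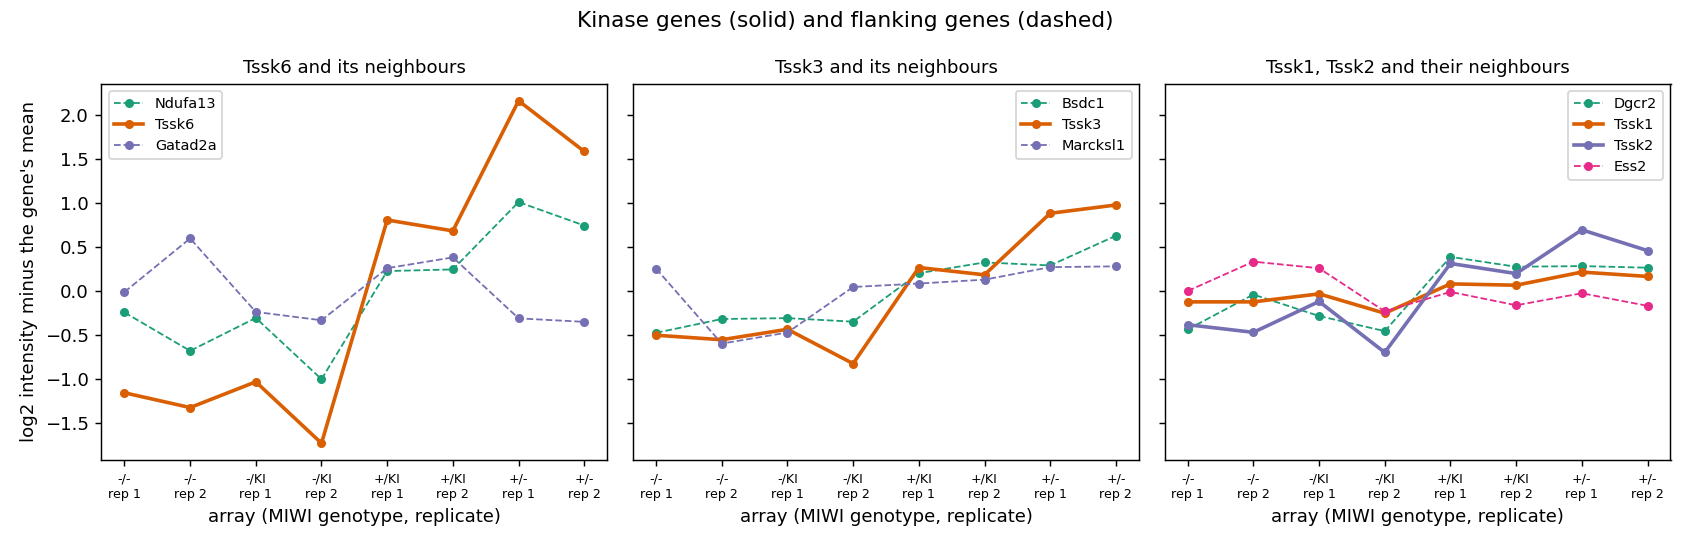
Log2 intensity minus each gene's mean (vertical axis, 1 scale) on the 8 arrays (horizontal axis, from MIWI -/- to MIWI +/-) for kinase genes (solid) and the genes beside them (dashed). Ndufa13, Bsdc1 and Dgcr2 have their 4 arrays without a wild-type allele below their 4 arrays with one, whereas Gatad2a and Ess2 do not. That order held for 6.53% of 19933 genes.

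The cell type label was checked on marker genes, and some of their summed intensities moved with the genotypes. The 10 round spermatid markers summed to 12091 and 11795 in MIWI -/- spermatids, 14572 and 12539 in MIWI -/KI, 22265 and 20829 in MIWI +/KI, and 27862 and 26253 in MIWI +/-, so that, as for Tssk6 and Tssk3, the arrays without a wild-type allele lay lowest and MIWI +/- highest. Of the 10, 4 (Tnp1, Prm1, Prm2 and Gapdhs) were lower in both mutants against MIWI +/-, and the other 6 passed in neither, with log2 differences such as 0.17 in MIWI -/- and 0.30 in MIWI -/KI for Acrv1, 0.19 in MIWI -/- and 0.04 in MIWI -/KI for Actl7b, and -0.47 in MIWI -/- and -0.52 in MIWI -/KI for Actl7a. For this and the other marker lists, the shares of all genes were 3.53% lower and 2.6% higher in MIWI -/-. In MIWI -/KI they were 3.12% lower and 3.11% higher. Against MIWI +/- the median of the round spermatid list was -0.35 in MIWI -/- and -0.36 in MIWI -/KI, and set against MIWI +/KI that of MIWI -/KI was -0.06. Without MIWI +/- replicate 2 Gapdhs had a limma adjusted p of 0.0849 in MIWI -/- and 0.0584 in MIWI -/KI, and without MIWI +/- replicate 1 Prm1 had 0.0682 in MIWI -/KI. The 10 spermatocyte markers summed to 9878 and 7439 in MIWI -/-, 8159 and 10442 in MIWI -/KI, 6938 and 6930 in MIWI +/KI, and 8116 and 7215 in MIWI +/-, with 1 of 10, Piwil2, higher in both mutants. Of the 10 spermatogonia markers none passed, with sums between 1516 and 1893 over all arrays. Sertoli markers (9 measured) summed to 915 to 1267 over the 4 arrays without a wild-type allele and 1450 to 1811 over the 4 with one, with Cst12 lower in both mutants and Defb19 in MIWI -/KI. Blood and macrophage markers (6 measured) summed to 1183 to 1351 without and 1408 to 2091 with a wild-type allele, with Aif1 lower in both mutants; against MIWI +/- the median of the 6 was 0.08 in MIWI -/- and 0.16 in MIWI -/KI, on the other side from the sum. Leydig markers (5 measured, none passed) summed to 363 to 721 without and 293 to 411 with one, and stromal markers (8) to 956 to 1183 without and 905 to 1036 with one, with Acta2 higher in both mutants. No marker was listed at 0, and the part of these differences in the kinase results was not tested.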

How the data were processed

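Intensities per transcript cluster were deposited in 1 table. Per the submitters' processing notes the authors used RMA, with no version named in the sources. As the deposited intensities were linear, their log2 was taken; 8 cells over 100 times the median of their row were set missing, none in a kinase gene. Array medians were 66.6 to 71.8; precision is limited by how many arrays there are. Of 35512 clusters, the platform annotation gave 21789 a single symbol, 1621 several and 12102 none. One limma 3.58.1 model (R 4.3.3) had a mean per genotype over all 8 arrays and a variance prior that followed intensity (residual df 4, prior df 3.98). All p-values are two-sided. The limma adjusted p-values (Benjamini-Hochberg) run over all clusters in the model, or over genes in the setting with 1 mean per gene. Exact adjusted p-values run over the 15 pairs of members. SE is limma's moderated one. The script was tested on simulated data.

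Members, lists and rules were chosen with earlier results of these data known. Named were all members, partners and flanking genes, the other kinases that passed in MIWI -/- or MIWI -/KI against MIWI +/-, and for members spanning at least 1 log2 unit the 6 genes of nearest pattern. Symbols starting with LOC or with Gm and a digit, or holding Rik or a hyphenated pseudogene mark, were left out of that search. Alternatives were other normalizations, offsets, filters, variance priors, array weights, models of only the groups compared, a replicate block and leaving out each array. Sequences and neighbour relations are from RefSeq tables of GRCm38.p6.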

Additional observations from a re-analysis of the deposited data

How the results depend on the processing

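Under 11 alternatives other than leaving out an array, the falls of Tssk3 and Tssk6 against MIWI +/- in both mutants kept their direction and call, as they did with any of the 8 arrays left out. Tssk2 kept its call in 11 of 11 in MIWI -/-, but in MIWI -/KI lost it with only the groups compared in the model (limma adjusted p = 0.117) and with array weights (0.0526).

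The count of kinase genes called in MIWI -/KI against MIWI +/KI was 0 with only the groups compared and 4 with 1 mean per gene, which adjusts over fewer features, beside 2. In MIWI +/KI against MIWI +/- it was 3 with only the groups compared, 3 with array weights and 2 with 1 mean per gene, beside 0. In MIWI -/- against MIWI +/KI it was 2 with only the groups compared, with array weights, without the dimmer clusters and with 1 mean per gene, beside 1. The difference between the backgrounds had 1 call (Tssk5) with 1 mean per gene, beside 0. The share of all genes called is not set beside these counts or those below, so they are no result about the kinases as a family. Repeating the quantile normalization turned Tssk4 to -0.05 in MIWI -/KI against MIWI +/- and to -0.02 against MIWI +/KI.

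With 1 array left out, the counts ranged from 2 to 3 in MIWI -/- and from 2 to 4 in MIWI -/KI against MIWI +/-, from 0 to 4 in MIWI -/KI against MIWI +/KI, from 0 to 3 in MIWI -/- against MIWI +/KI, from 2 to 4 in the average over both backgrounds, and stayed at 0 in MIWI +/KI against MIWI +/- and in MIWI -/KI against MIWI -/-; the pairs of members ranged from 10 to 11. Directions of small differences turned: Tssk4 ranged from -0.24 to 0.28 and Tssk5 from -0.4 to 0.06 in MIWI -/KI against MIWI +/-, and Tssk4 from -0.18 to 0.34 against MIWI +/KI. In MIWI -/KI against MIWI -/-, Tssk1 ranged from -0.13 to 0.09, Tssk2 from -0.27 to 0.31, Tssk3 from -0.3 to 0.09, Tssk4 from -0.37 to 0.15 and Tssk6 from -0.49 to 0.21. Tssk5 ranged from -0.32 to 0.1 in MIWI -/- against MIWI +/KI, Tssk4 from -0.02 to 0.24 in the average over both backgrounds, and, in the difference between the backgrounds, Tssk1 from -0.01 to 0.21 and Tssk4 from -0.31 to 0.2. The cause of these changes was not tested.

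Called partners with 1 array left out numbered 2 to 5 in MIWI -/- and 1 to 6 in MIWI -/KI against MIWI +/-, the AMPK-related kinases 0 to 3 in MIWI -/- and 0 to 2 in MIWI -/KI, and the other germ cell kinases 1 to 6 in MIWI -/- and 1 to 4 in MIWI -/KI. With only the groups compared, the partners called in MIWI -/KI were 2, beside 6, and with array weights those in MIWI -/- were 5, beside 3. Replicate numbers were not used to pair the samples in the main model. Deviations of same-numbered arrays correlated with r between -0.258 and 0.297. Whether same-numbered arrays shared a preparation was not tested. With the replicate block in the model the counts of kinase genes were 3 in each mutant against MIWI +/-, 2 in MIWI -/KI against MIWI +/KI, 1 in MIWI -/- against MIWI +/KI, 3 in the average over both backgrounds and 0 elsewhere, as without it; the AMPK-related kinases had 2 calls in MIWI -/-, beside 1. The block ended the calls of Odf2 (limma adjusted p = 0.0509 in MIWI -/- and 0.0602 in MIWI -/KI), Nek2 in MIWI -/- (0.064) and Tex14 in MIWI -/KI (0.0509). With 2 arrays per genotype, small differences such as those of Tssk1 could not be settled.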
